A study of Mus musculus with 6 samples.

Results

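The regions described here are those whose nearest gene, in a list of SPOC1 chromatin immunoprecipitation (ChIP-seq) regions from mouse testis, is named Zfp followed by a digit. They were chosen by that name alone, which no measured value enters. The name was matched by 221 of the 39096 regions in the list (0.565%, Wilson 95% interval 0.496 to 0.645), and the nearest genes were 86. All 221 lay on chromosomes 1 to 19 and X, where the other regions were 22809 (58.3% of the list). The remainder of the list lay outside these chromosomes. The list holds no column per library, so every value below is a description of 1 list of regions, without replicates and without a test.

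The libraries came from testes of C57Bl/6 mice aged 5 weeks. Of the 3 SPOC1 ChIP libraries, 1 was labelled wild type and 2 were labelled Phf13-/-, and of the 3 input libraries, 2 were labelled wild type and 1 Phf13-/-. Phf13 encodes SPOC1, the protein the ChIP antibody was directed to. For animal D821 the input was labelled wild type and the ChIP library Phf13-/-, and which of them is right was not tested. The sources used here do not say which of them entered the list, and its entries are therefore called regions and not binding sites. No expression was measured, so the tissue label could not be set against testis markers. The depth behind the list is unknown.

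Zfp is the mouse symbol for zinc finger protein. Many Zfp genes encode proteins with a KRAB domain and an array of C2H2 zinc fingers, which bind DNA, often inside retrotransposons, and recruit TRIM28 and the histone methyltransferase SETDB1 to silence it. These KRAB genes multiplied by local duplication and lie in clusters of similar copies, while other Zfp genes, such as Zfp804a or Zfp462, stand apart and are no KRAB genes. SPOC1, also called PHF13, carries a PHD finger with which it reads methylation on histone H3. L1Md_T and L1Md_A are young mouse LINE-1 families, and IAP, MERVL, ETn and MMERVK10C are endogenous retroviruses, which belong to the LTR class.

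Promoters of 3 Zfp genes with many or near regions are printed from the RefSeq promoter table (GRCm38.p6), to show how unlike their start sequences are. Each runs from 250 bases before to 50 after the gene's start, and capitals mark CG dinucleotides, which read the same on both strands. The windows were chosen after their values were seen. Zfp804a, the gene with the most regions, has its window at chr2:82053408-82053707 on the plus strand, with 45 CG, a number reached by 1.93% of the 32851 windows in the table. Zfp619, with 3 regions within 10 kb upstream, has its window at chr7:39517516-39517815 on the plus strand, with 21 CG (reached by 24.8%). Zfp352, with a region 3.99 kb upstream, has its window at chr4:90218570-90218869 on the plus strand, with 2 CG (reached by 85.9%).
Zfp804a: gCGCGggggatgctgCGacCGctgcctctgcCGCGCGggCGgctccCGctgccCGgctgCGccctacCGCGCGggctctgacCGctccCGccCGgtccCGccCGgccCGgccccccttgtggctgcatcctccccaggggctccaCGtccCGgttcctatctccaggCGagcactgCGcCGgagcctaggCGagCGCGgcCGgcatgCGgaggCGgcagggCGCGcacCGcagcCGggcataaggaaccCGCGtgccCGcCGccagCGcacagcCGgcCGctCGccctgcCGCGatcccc
Zfp619: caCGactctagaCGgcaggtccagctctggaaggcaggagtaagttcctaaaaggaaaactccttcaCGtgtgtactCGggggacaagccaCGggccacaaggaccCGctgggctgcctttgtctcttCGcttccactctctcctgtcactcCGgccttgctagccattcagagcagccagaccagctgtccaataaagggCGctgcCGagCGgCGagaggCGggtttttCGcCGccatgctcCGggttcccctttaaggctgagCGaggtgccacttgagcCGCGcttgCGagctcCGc
Zfp352: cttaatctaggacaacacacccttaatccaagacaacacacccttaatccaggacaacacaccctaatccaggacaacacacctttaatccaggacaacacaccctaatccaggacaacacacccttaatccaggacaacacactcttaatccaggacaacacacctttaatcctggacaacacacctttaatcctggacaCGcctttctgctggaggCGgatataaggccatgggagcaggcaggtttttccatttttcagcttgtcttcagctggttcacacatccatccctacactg

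The Zfp804a window has a GC content of 79.3%, that of Zfp619 61.0% and that of Zfp352 47.0%. None of the windows of the 336 Zfp genes in that table overlapped a region (0 genes). The share over all windows was not counted, and 0.177% of all protein-coding genes had a region within 1 kb of the start. Zfp40 and Zfp354c, which have a region in the promoter class, have no window in the table and could not be counted. The 406 windows of Zfp genes held a median of 14 CG, against 7 over all windows. The 4 genes named below as having a region within 5 kb or as leading in count, and without a window there, are Zfp354c, Zfp40, Zfp462 and Zfp960.

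The number of regions per Zfp gene was uneven. Of the 86 genes, 42 had 1 region, 16 had 2, 22 had 3 to 5, and 6 had 6 or more. The leading 2 genes held 38 regions (17.2%), and the leading 20 held 123 (55.7%). By gene name, 21.7% of the 397 protein-coding Zfp genes in the RefSeq gene table (GRCm38.p6) were nearest to a region. Another 12 Zfp genes appear in the list under an older name, and with these, matched by gene ID, the share was 24.7% (98 genes, 20.7 to 29.2), near the 23.3% of all 21523 protein-coding genes. The interval of the Zfp share holds that background.

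**Figure D1:**
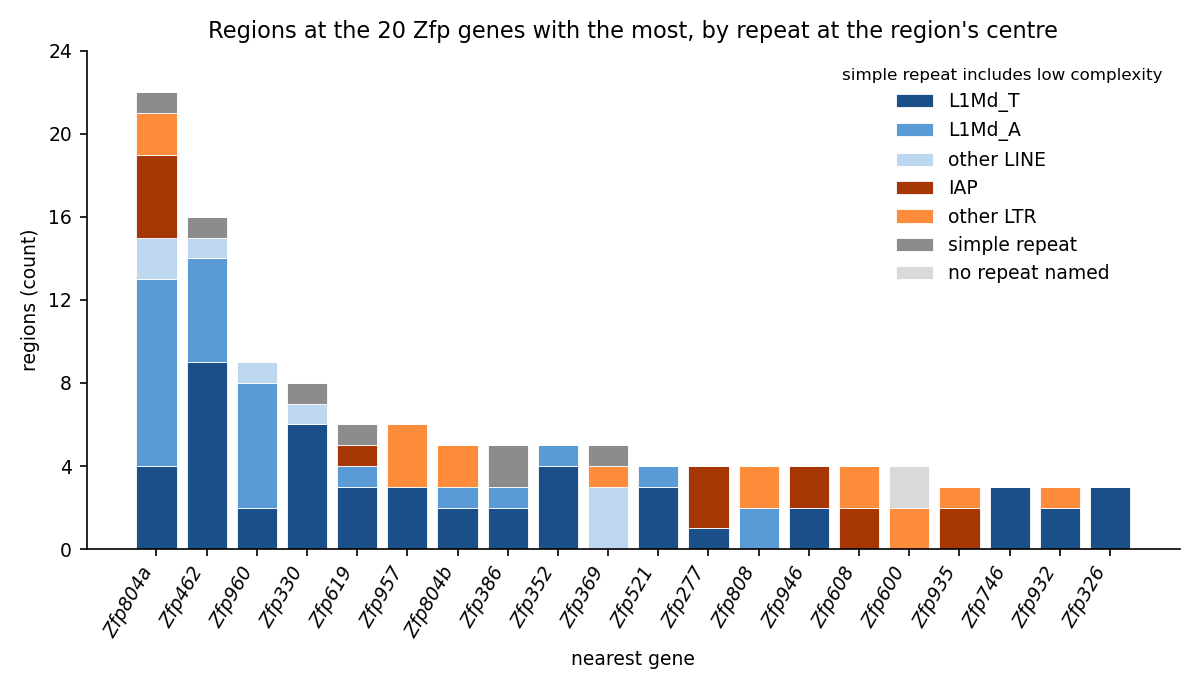
Number of regions (y axis, count) at each of the 20 Zfp genes with the most (x axis), stacked by the repeat named at the region's centre. Zfp804a had 22 regions and Zfp462 had 16, while no gene ranked 21 or lower had more than 3.

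Zfp804a, the mouse counterpart of a human gene linked to schizophrenia risk, had 22 regions on chromosome 2, from -591 to 685 kb around its start (a negative distance is upstream). The nearest lay 60.7 kb away, 9 were upstream and 13 downstream, and only 1 lay in an intron of the gene. The centres were named L1Md_A in 9 regions, L1Md_T in 4, IAPEz-int in 4 and L1Md_F2 in 2. Scores per kb ran from 10.7 to 44.2 with a median of 26.3, and the highest was an L1Md_T region at 82489378 to 82491788, with a score of 106.6. The score is the authors' value for each region. It is divided here by the region's length to give the score per kb, and no source used here states its unit.

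Zfp462, a large chromatin-associated zinc finger protein needed in development, had 16 regions on chromosome 4. All 16 were upstream and intergenic, between 66.9 and 552 kb from the start. L1Md_T was named in 9 and L1Md_A in 5, and the median score per kb was 28.2. Unlike those of Zfp804a, these regions held no LTR centre.

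Both genes lie in wide stretches without another protein-coding gene. The space between the neighbouring protein-coding genes of Zfp804a is 2.28 Mb, and it held 38 regions, or 16.6 per Mb (Poisson 95% interval 11.8 to 22.8), against 8.06 per Mb over chromosome 2. For Zfp462 the space is 1.49 Mb with 27 regions, or 18.1 per Mb, against 9.0 over chromosome 4. Both genes were picked for their high counts, so densities above those of their chromosomes are partly set by the choice. The interval does not allow for it. Across Zfp genes the median of this space was larger where regions were more, counted by gene ID, from 49.7 kb in the 299 genes with 0 regions to 91.7 kb with 1 region, 106 kb with 2 to 3 and 298 kb in the 21 genes with 4 or more. A wide space also gives a gene more sequence to be nearest to, so the count per gene is no measure of density. Wide spaces with few regions were also found: Zfp64 has 0.865 Mb with 0 regions, and Zfp516, a regulator of brown fat genes, has 1.32 Mb with 5 regions of which 0 were nearest to it.

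Other genes with many regions differed in side and in family. Zfp960 on chromosome 17 had 9 regions, 8 of them upstream, out to -391 kb, and 6 were L1Md_A. Zfp330, which encodes a nucleolar protein, had 8 regions, with L1Md_T named in 6. Zfp352, an intronless gene known from the early embryo, had 5 regions, all upstream, of which 4 were L1Md_T. Zfp369 on chromosome 13 had 5, and 3 of them, 125 to 128 kb downstream, were named Lx4B, an older LINE-1 family. Zfp608 had 4 regions and no LINE among them: 2 IAPEz-int, 1 MERVL-int and 1 MT2_Mm, the last being the long terminal repeat of MERVL. Zfp521, a regulator of progenitor cells, also had 4, all of them L1Md_T or L1Md_A. Zfp386 had 5, all upstream and intergenic, from -13.2 to -87.0 kb, of which 2 were L1Md_T, 1 was L1Md_A and 2 were simple repeats. Zfp746 and Zfp326 had 3 each, all of them L1Md_T. Zfp946 had 4, of which 2 were L1Md_T and 2 IAPEz-int.

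Neighbouring regions often shared a family. Chaining regions whose centres lie within 10 kb of the next gave 152 groups, and 49 groups of 2 or more held 118 regions. In 40 of these 49 every region carried the same family name. The same count was not made for the other regions of the list, so this is not given as a trait of Zfp genes. The largest groups held 4 regions, at Zfp330, Zfp462 and Zfp600. Members of a group share 1 stretch of DNA, and counts of regions are therefore larger than counts of places.

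The annotation in the list placed 181 of the 221 regions between genes (81.9%, intergenic) and 36 in introns (16.3%, 12 to 21.7). Of the other 22809 regions on chromosomes 1 to 19 and X, 78.5% were intergenic and 21.04% intronic. The order of these intronic shares turns when the 12 Zfp genes under older names are added, which gives 22.6% (61 of 270 regions). The remaining 4 regions were 2 in the promoter class, at Zfp40 and Zfp354c, 1 in the 5' untranslated region at Zfp781 and 1 in the 3' untranslated region at Zfp488. Regions were intergenic only at 61 of the 86 genes by this annotation. By the gene table, the centre lay inside a protein-coding gene in 21.7% of the Zfp regions (16.8 to 27.6). That share was not counted for the other regions. The regions at Zfp654 and Zfp385c, which the list calls intergenic, lie inside those genes in the gene table.

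An intronic region was not always in the gene it was nearest to. In 26 of the 36 the intron belonged to the nearest Zfp gene, over 17 genes, and in 10 to another gene. All 6 regions of Zfp957 lay in introns of Vwa8, at 53.3 to 100 kb from the Zfp957 start, 3 of them MERVL-int and 3 L1Md_T. Zfp277 held 4 regions in its own introns, with IAPEz-int named in 3 and L1Md_T in 1. Zfp600 held 4 in its own introns, of which 2 were MMERVK10C-int and 2 carried no repeat name. Zfp385b had 3 intronic regions at negative distances, -48.7 to -82.6 kb, so the list measured them from a start inside the gene.

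The repeats at the centres differed between the classes of place. LINEs were named in 44.4% of the 36 intronic Zfp regions (29.5 to 60.4), against 70.5% of intronic regions elsewhere. LTR elements were named in 41.7% (27.1 to 57.8), against 17.01%. In the intergenic Zfp regions the shares were 67.4% LINE and 24.3% LTR, against 73.7% and 17.3% elsewhere. Several intronic LTR regions share 1 place, such as 3 MERVL-int at Zfp957, 3 IAPEz-int at Zfp277, 2 MMERVK10C-int at Zfp600 and 2 IAPEz-int at Zfp872. The intervals count each as a separate region and are too narrow for that reason. These differences were not tested.

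Distance to the start of the Zfp gene had a median of 54.9 kb (quartiles 20.2 and 185). Of the 221 regions, 141 lay within 100 kb (63.8%, 57.3 to 69.9), against 48.1% of other regions, and 28 within 10 kb (12.7%), against 6.70%. Upstream regions were 123 (55.7%, 49.1 to 62.1). Among intergenic regions alone 115 of 181 were upstream (63.5%, 56.3 to 70.2), against 57.9% of other intergenic regions.

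**Figure D2:**
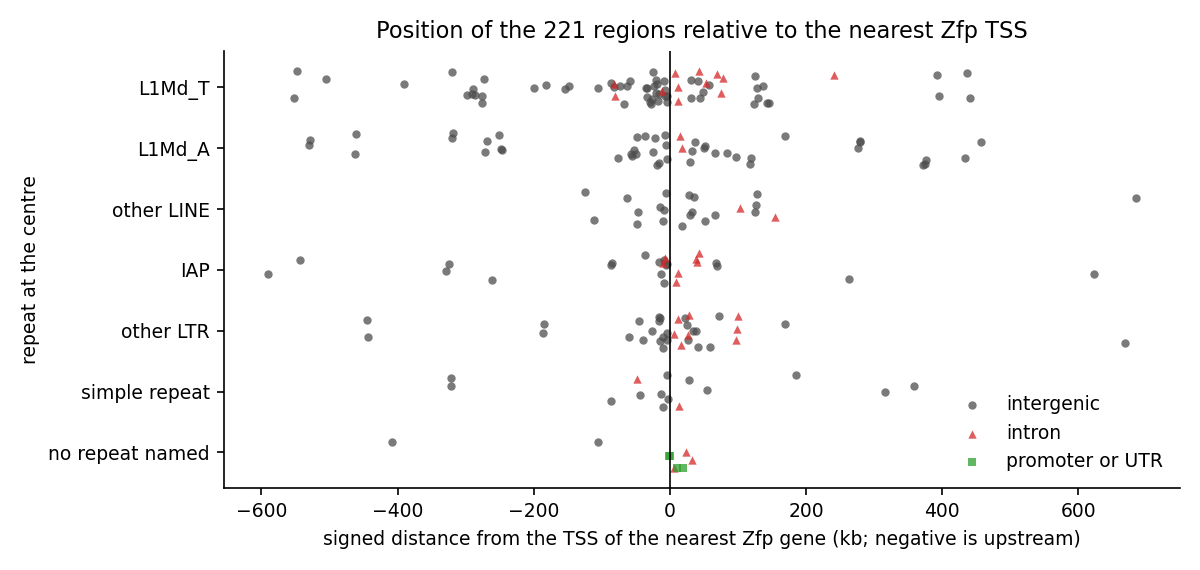
Each of the 221 regions by signed distance from the start of its nearest Zfp gene (x axis, kb, negative upstream) and the repeat at its centre (y axis), with the mark showing intergenic, intron or promoter and UTR place. Intronic regions gather downstream of the start, and the farthest points, near -591 and 685 kb, belong to Zfp804a.

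Close to the starts most regions were upstream. All 10 regions within 5 kb were (100%, 72.2 to 100), against 292 of 499 such regions elsewhere (58.5%, 54.1 to 62.8). Those at Zfp458 and Zfp936 are upstream of a start that lies within the gene, and in the gene table they fall inside it. The regions elsewhere were not checked for this. A count of 0 downstream of 221 allows a share of up to 1.36%, for counting error only. Elsewhere 207 of 22809 regions lay downstream within 5 kb, a share below that bound. Within 10 kb, 24 were upstream and 4 downstream, all 4 of them intronic, and the upstream share was 85.7% (68.5 to 94.3) against 55.6% elsewhere. Within 100 kb it was 56.7% against 51.8%.

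Seen per gene, 2.77% of protein-coding Zfp genes had a region within 5 kb of the start (11 genes by gene ID, 1.55 to 4.89), against 1.76% of all protein-coding genes, and 2 (0.504%) had one within 1 kb, against 0.177%. A region centre lay inside the gene for 39 Zfp genes (9.82%, background 9.67%) and within 10 kb of the gene for 71 (17.9%, background 15.8%). Within 100 kb there was a region for 231 (58.2%, 53.3 to 62.9), against 52.3%. Neighbouring genes of a cluster can share such a region, so this interval is too narrow. The share was 61.4% of the clustered Zfp genes, as defined below, and 51.2% of the lone ones. It was 86.4% of Olfr, 95.2% of Vmn1r and 91.8% of Vmn2r genes, the receptor families compared below.

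The closest region was at Zfp40, with its centre 205 bases upstream (chromosome 17, 23193183 to 23193683) and a score of 11.7. Zfp354c, a KRAB zinc finger gene, had one 905 bases upstream (chromosome 11, 50828386 to 50828886), with a score of 13.6. The list classes both as promoter and so names no repeat for them. The other 8 lay between 3.36 and 4.57 kb upstream. Their centres were L1Md_T at Zfp352 and Zfp619, L1Md_A at Zfp458, IAPEz-int at Zfp414, MMERVK10C-int at Zfp488, RLTR13A at Zfp936 and simple repeats at Zfp959 and Zfp42. The scores spread from 4.67 at Zfp959, the lowest of all 221 regions, to 49.3 at Zfp488. Zfp42, known as Rex1 and used as a pluripotency marker, had 1 region, of score 6.37, at a (TCTA)n repeat.

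Retrotransposons were named at the centres of 197 regions (89.1%), against 89.9% of other regions, but their kinds were divided differently. LINEs were named in 138 (62.4%, 55.9 to 68.6), against 72.7% elsewhere, and LTR elements in 59 (26.7%, 21.3 to 32.9), against 17.1%. L1Md_T was named in 70 regions and L1Md_A in 46, together 52.5% (45.9 to 59.0) against 63.2%. Regions of these 2 families lay at 44 of the 86 genes. Simple repeats were named in 14 regions (6.33% against 5.18%), and no repeat in 9 (4.07% against 3.96%).

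Among LTR families the Zfp regions held 25 IAPEz-int (11.3% against 8.20% elsewhere), 10 MERVL-int (4.52% against 2.99%), 8 MMERVK10C-int (3.62% against 0.798%) and 7 MMETn-int (3.17% against 0.872%). ETn and MMERVK10C elements together came to 16 regions, or 7.24% (4.51 to 11.4), against 1.88%. The choice to combine these names was made after the values were seen, several of these regions share 1 place, such as 2 MMERVK10C-int at Zfp600, and the difference was not tested.

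The shift was also counted within chromosomes. In the 12 chromosomes with 5 or more Zfp regions, the LINE share was lower at Zfp genes than in the other regions of the same chromosome in 10, and the LTR share was higher in 9. Chromosome 17, with the most Zfp regions (37), went the other way, with LINEs in 78.4% against 68.3%. So did chromosome 5, with 21 Zfp regions (76.2% against 70.05%). Chromosomes 2 and 4, with 32 and 28 Zfp regions, are among the 10 but nearly tied, chromosome 2 at 68.8% against 69.7%. The clearly lower LINE shares were thus on chromosomes with 5 to 17 Zfp regions, and not on those with the most. On chromosome 13, 8 of 17 Zfp regions were LTR elements (47.1% against 20.04%), and on chromosome 9 all 5 were. Zfp regions lay on 19 chromosomes, and chromosomes 1 and Y had none.

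The score per kb of the Zfp regions was close to that of the rest. Its median was 28.4 (quartiles 23.4 and 32.0, range 9.34 to 52.1), against 28.0 (22.0 and 32.7). With the genes under older names it was 26.8. By repeat family the medians ran as follows. MERVL-int had a median of 34.2 at Zfp genes and 32.8 elsewhere, IAPEz-int 31.8 and 32.2, L1Md_T 29.8 and 29.3, L1Md_A 26.9 and 28.9, and MMETn-int 23.6 and 21.7. Simple repeats were low in both, at 13.2 and 12.7. Regions with no named repeat had medians of 23.0 and 12.3, but 4 of the 9 Zfp regions were of the promoter or untranslated classes (23.4 to 28.4). The other 5, in introns or between genes, had a median of 14.9, against 12.3 in 801 such regions elsewhere.

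**Figure D3:**
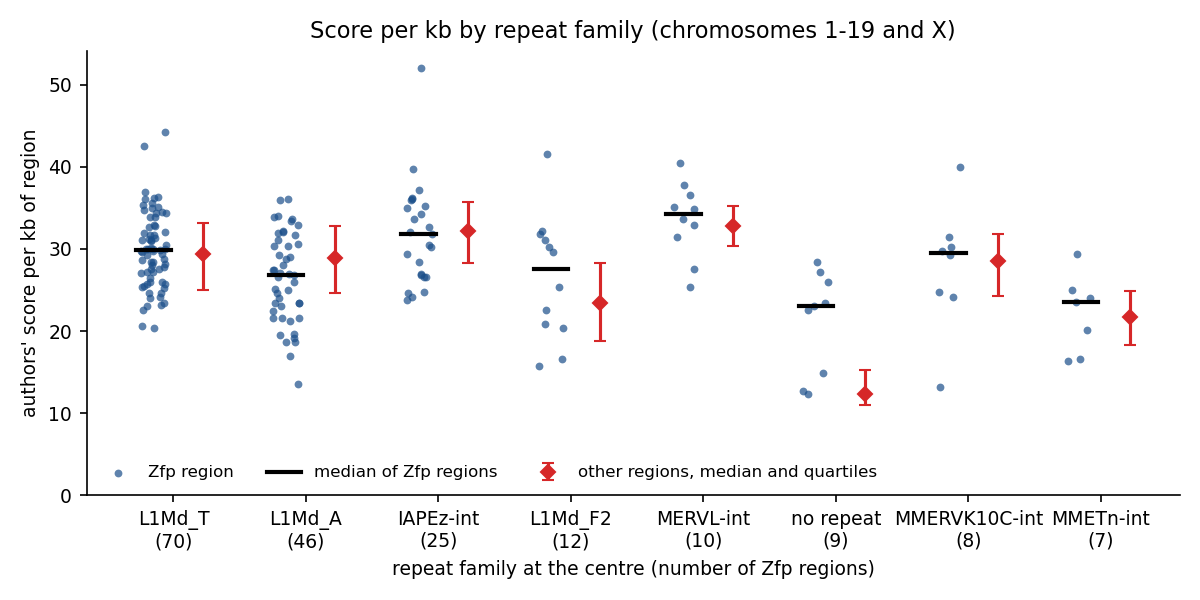
Score per kb (y axis, the authors' score divided by length in kb) of each Zfp region by the repeat at its centre (x axis, number of Zfp regions in brackets), where the line is the Zfp median and the diamond with its bar the median and quartiles of the other regions. The medians of L1Md_T, 29.8 and 29.3, nearly meet, and the 9 Zfp regions without a named repeat include 4 of the promoter or untranslated classes, at 23.4 to 28.4.

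Single high scores went with long regions. The 10 highest scores were at Zfp442 (195.4), Zfp960 (185.4), Zfp955b (169.5), Zfp52 (168), Zfp619 (159.7), Zfp300 (141), Zfp521 (128.5), Zfp804b (116.8), Zfp407 (108.9) and Zfp804a (106.6). The Zfp442 region spans 150441341 to 150447005 on chromosome 2, at an L1Md_T in an intron of the gene, 7.32 kb from its start. Of the 221 regions 6 were longer than 4 kb, all 6 with a clustered Zfp gene as their nearest and 5 of them at L1Md_T. Those of Zfp960 and Zfp619 lay 391 and 169 kb from the gene's start. Per kb, the highest region was an IAPEz-int near Zfp706 on chromosome 15, at 52.1, followed by regions near Zfp804a (44.2), Zfp951 (42.6), Zfp97 (41.6) and Zfp677 (40.4). Zfp600 (40), Zfp946 (39.7), Zfp608 (37.8) and Zfp804b (37.1) completed the 10 highest, together with another region of Zfp804a (37.2).

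Clusters were formed from the positions of all Zfp genes in the gene table, joining neighbours at most 500 kb apart. Of 416 placed genes, 282 fell into 51 clusters of 2 or more genes and 134 stood alone. Regions with a Zfp gene as nearest were 100 at clustered genes (45.2%), over 53 genes, and 121 at lone genes, over 33. Which of them held more was not stable: the clustered share was 50.3% without Zfp804a, 55.2% with the genes under older names and 62.4% among regions within 100 kb of the start. Regions of clustered genes lay closer to the start, with a median of 27.9 kb against 125 kb. The share of protein-coding genes with a region, by gene ID, was 23.9% of the clustered and 26.4% of the lone genes.

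Of the 51 clusters, 29 had a region nearest to a member by the listed names (30 with the genes under older names). In 20 clusters the span held 0 regions. By gene ID the largest count was in the cluster from Zfp968 to Zfp973 on chromosome 2, described below, with 16 regions at Zfp967 and 10 at Zfp966. By the listed names it was in the cluster from Zfp160 to Zfp13 on chromosome 17 (21008941 to 23599755, 23 Zfp genes), with 17 regions at 11 genes. Its span held 43 regions, or 16.6 per Mb (12.01 to 22.4), against 7.23 over the chromosome. Only 17 of the 43 were nearest to a gene named Zfp. Most of the rest were nearest to pheromone receptor genes of the Vmn2r family that lie among the Zfp genes. Vmn2r112 had 5, and Vmn2r113 and Vmn2r114 had 4 each. The density of the span is therefore not that of the Zfp-nearest regions alone. Of the 17, 12 were LINEs and 4 LTR elements. The cluster from Zfp808 to Zfp934 on chromosome 13 had 7 regions, 5 of them LTR elements, among them 2 MERVL-int at Zfp808 and 2 IAPEz-int at Zfp935. The cluster from Zfp990 to Zfp933 on chromosome 4 had 6 by the listed names, of which 5 were intronic and 1 was a LINE. By gene ID it held more, among them 4 regions each at Zfp982 and Zfp985.

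A cluster with many Zfp genes could hold few regions. That from Zfp84 to Zfp146 on chromosome 7, with 15 genes in 0.401 Mb, had 0 in its span. The cluster from Zfp640 to Zfp273 on chromosome 13, with 25 genes, had 2 regions at genes the list names Zfp. Its span held 10 regions, or 8.65 per Mb (4.15 to 15.9), against 7.97 over the chromosome. Over all 51 spans, 23.1 Mb held 245 regions, or 10.6 per Mb (9.33 to 12), where the densities of their chromosomes would place 195. Of these 245, only 68 were nearest to a gene named Zfp, and 122 to a gene with a Gm or Rik name.

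**Figure D4:**
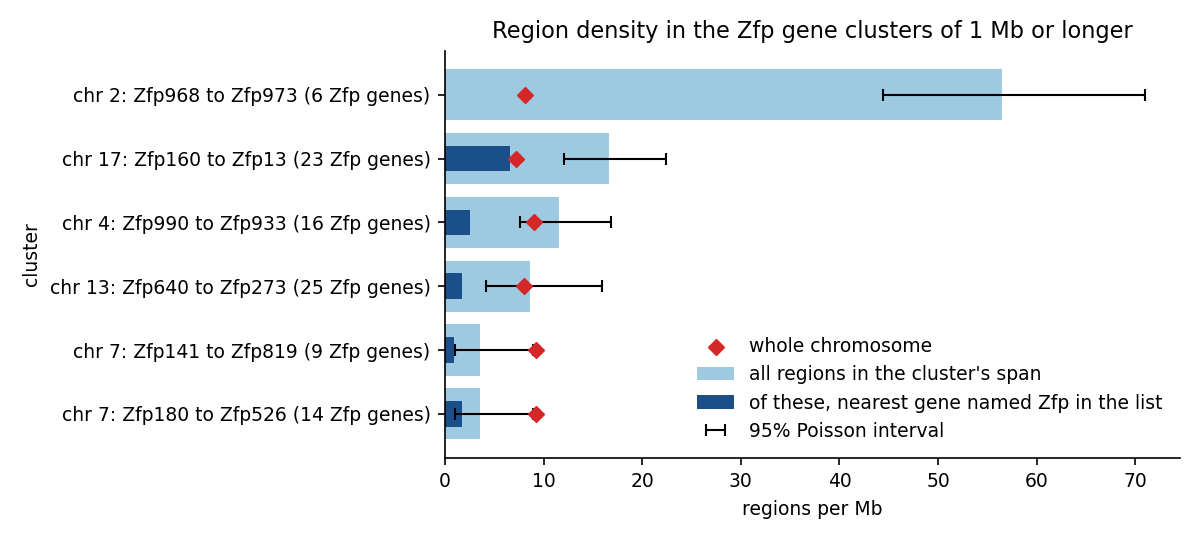
Regions per Mb (x axis) inside the span of the 6 Zfp gene clusters of at least 1 Mb (y axis), with light bars for all regions (line: Poisson 95% interval), dark bars for those nearest to a gene named Zfp, and a diamond for the whole chromosome. The cluster from Zfp968 to Zfp973 on chromosome 2 stands at 56.5 per Mb, against 8.06 for its chromosome, and has no dark bar.

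The cluster from Zfp968 to Zfp973 on chromosome 2 (175372034 to 176681090) stood apart. Its span of 1.31 Mb, with 6 Zfp genes, held 74 regions, or 56.5 per Mb (44.4 to 71.0), which is 7.02 times the density of the chromosome. None of the 74 was nearest to a gene that the list names Zfp (0 regions), and the most frequent names were Gm14432 with 18 regions, Gm14431 with 16 and Gm14405 with 9. By gene ID, Gm14431 is Zfp967, Gm8898, with 7 of the 74 regions, is Zfp966, and Gm14306, with 2, is Zfp965. The regions also differed in kind, with 13 LINEs (17.6%), 25 LTR elements (33.8%) and 22 without a named repeat (29.7%). A single region was L1Md_T or L1Md_A, 0 were IAP, and 11 were named MurSatRep1. Their median score per kb was 13.2 (quartiles 11.7 and 14.9). Without this cluster the other spans held 171 regions, or 7.85 per Mb (6.72 to 9.12), where 185 would be placed by chromosome density. The density of all spans thus exceeds that of their chromosomes with this cluster and not without it. Near-identical copies of genes in a cluster can share reads. No source used here states how such reads were counted, and their part in these values was not tested.

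The 12 Zfp genes listed under older names had 49 regions in all, with 16 at Zfp967 and 10 at Zfp966. In these, 51% were intronic, 30.6% were LINEs, 32.7% had no named repeat, and the median score per kb was 14.9. They are not counted among the 221. With them the total would be 270 regions at 98 genes.

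Families of duplicated receptor genes offer a comparison: odorant receptors (Olfr, 439 regions) and pheromone receptors (Vmn1r, 214, and Vmn2r, 240). LINEs were named in 79.7% of Olfr regions (75.7 to 83.2), 63.6% of Vmn1r and 58.3% of Vmn2r regions, and the Zfp share of 62.4% lay between the last 2. The Zfp LTR share of 26.7% was the highest of the 4, against 13.9% at Olfr, 21.03% at Vmn1r and 20% at Vmn2r genes, though its interval overlaps those of Vmn1r and Vmn2r. Intronic shares were 2.96% at Olfr, 1.40% at Vmn1r and 19.6% at Vmn2r genes. The receptor families lay closer to their regions, with 94.1, 98.1 and 90.4% within 100 kb, against 63.8% for Zfp. At clustered Zfp genes 88 of 100 regions lay within 100 kb, and at lone Zfp genes 53 of 121.

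**Figure D5:**
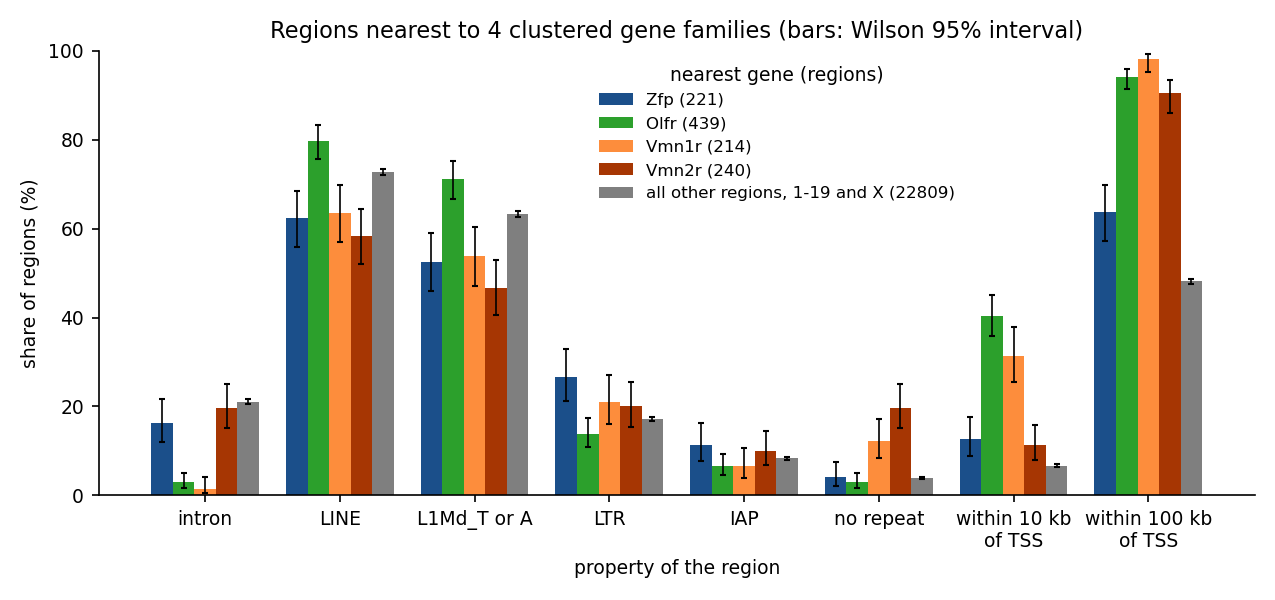
Share of regions (y axis, %, bars: Wilson 95% interval) by place, repeat and distance for regions nearest to Zfp, Olfr, Vmn1r and Vmn2r genes and for all other regions on chromosomes 1 to 19 and X. Zfp regions had an LTR share of 26.7%, against 17.1% in the other regions.

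A list of 20 Zfp genes with known roles was drawn up, and 5 of them were nearest to a region (25%, background 23.3%). These were Zfp521 with 4 regions, Zfp932, a reported repressor of endogenous retroviruses, with 3, and Zfp42, Zfp217 and Zfp354c with 1 each. The 3 regions of Zfp932 lay 17.6 to 26.7 kb upstream, at 2 L1Md_T and 1 MMERVK10C-int. The single region of Zfp217, whose human counterpart is amplified in breast cancer, lay 105 kb away. The other 15 had 0. Among them are Zfp57, which keeps imprints, Zfp809, which silences proviruses, Zfp568, which represses a placental Igf2 transcript, and Zfp541, which acts in meiosis. The rest with 0 are Zfp819, Zfp708, Zfp91, Zfp148, Zfp281, Zfp36, Zfp335, Zfp423, Zfp516, Zfp37 and Zfp39. Of the 20 genes, 10 had no region within 100 kb of the gene and 10 had one, near the 52.3% of all protein-coding genes with one.

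The proteins that KRAB zinc fingers work with were listed too, among them Trim28, Setdb1, the heterochromatin proteins Cbx1, Cbx3 and Cbx5 and the DNA methyltransferases. Of 21 such genes, 1 was nearest to a region (4.76%, background 23.3%). It was Smarcad1, a chromatin remodeller, with 3 regions, of which 2 were MERVL-int and 1 L1Md_T. A region lay within 100 kb of 7 of the 21 (33.3%, background 52.3%).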

How the data were processed

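SPOC1 ChIP and input libraries of mouse testis were sequenced, and 1 annotated region list was deposited. Per the submitters' processing notes, Bowtie2 2.2.2, SAMtools, HOMER 4.6 and the mm10 build were used, with no role or order stated. Per the file headers the list is output of HOMER's peak annotation, with place, repeat name and signed distance to the nearest start. The deposited score of each region is the authors' value, of a unit that is not stated, and was divided here by region length. Scores fell on a grid with a step of 0.2124, and what a step stands for was not tested.

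Members were taken by gene name, and members and gene lists were chosen with earlier results of these data known. Shares carry Wilson 95% intervals, densities carry exact Poisson 95% intervals, and both cover counting error only. No p-value was computed, since regions of 1 list are not replicates. Zfp positions, gene IDs and promoters came from RefSeq tables of GRCm38.p6, which shares its coordinates with mm10. The listed distance was within 1 kb of that to a promoter window for 167 of 168 regions whose gene has one. The genes named are the 20 with the most regions, those with a region within 5 kb, those of the 10 highest scores and scores per kb, those of multi-gene clusters with 20 or more regions, and a list of known genes. Genes named beyond these were chosen after their values were seen. Alternatives covered score, length, distance, cluster gap, gene type, older names and close groups. The interval and clustering functions were tested on simulated data. Computing was done in Python 3.11.15 with SciPy 1.17.1, NumPy 2.4.6, pandas 2.3.3 and, for figures, matplotlib 3.10.9.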

Additional observations from a re-analysis of the deposited data

How the results depend on the processing

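Of 126 alternative values over 13 results, 111 stayed within the 95% interval of the share or median given, or within 1.5 times the count, and 15 did not. Some of the 111 could not move. The number of clusters rests on gene positions alone, so it stayed at 51 where only the regions changed. Keeping protein-coding genes left all 221 regions in place. The tally is therefore no measure of stability. Keeping the upper 50% of the list by score left 120 regions, with L1Md_T and L1Md_A at 60.8% and a median score per kb of 31.2. Regions longer than 500 bp were 136, with 61.0% and 30.2. Within 100 kb of the start there were 141 regions, 22.7% intronic, at a median distance of 28.4 kb, and 62.4% were at clustered genes. With genes under older names, an alternative chosen after seeing the data, the intronic share was 22.6%, the L1Md_T and L1Md_A share 43.7%, the median score per kb 26.8 and the clustered share 55.2%. This takes the intronic share above the 21.04% of other regions and the score per kb below their 28.0, and puts more regions at clustered than at lone genes, as does leaving out Zfp804a (50.3%). The score as deposited, without division by length, had a median of 19.1. These alternatives change which regions are counted or the quantity itself. Counting 1 region per 10-kb group, also added after seeing the data, left 152 regions, and no share or median left its interval. No paired analysis was possible because libraries have no columns of their own, and leaving out replicates was not run for the same reason. The depth is unknown, so a gene with 0 regions may hold signal below the authors' threshold.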

Other observations

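Zinc finger families outside the Zfp name varied in how many of their genes were nearest to a region, where the share over all protein-coding genes was 23.3%. Zic genes, which act in neural patterning, had 33 regions at 3 of 5 genes, and the Y-linked Zfy genes had 33 at 2 genes. The number of regions on chromosome Y as a whole was not set beside the Zfy count, which therefore has no background of its own. Klf genes had 23 regions at 7 of 17 genes (41.2%), Zscan 9 at 4 of 16 (25%), Zkscan 7 at 2 of 11 (18.2%) and Zbtb 6 at 4 of 41 (9.76%). Zfp genes by name stood at 21.7%, with 0.557 regions per gene, against 6.6 in Zic, 1.35 in Klf and 0.146 in Zbtb. Zfyve genes, whose FYVE fingers bind lipids and not DNA, had 0 at 8 genes.

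In the listed Zfp regions, 85 of 221 (38.5%) were exactly 500 bp long, and the median length was 646 bp.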
